A study of Rattus norvegicus with 2 samples.

Results

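The 9 genes described here govern the clotting of blood and the removal of clots, and their RNA was measured in single cells of rat carotid arteries. The genes were F3, Tfpi, Tfpi2, Thbd, Procr, Vwf, Plat, Plau and Plaur. They were chosen by name, and 9 of 9 were among the 32623 genes listed. Carotid arteries of 2 male SD rats gave 2 libraries, the untreated left arteries (control group) and the balloon-injured right arteries of the same rats (case group), taken 28 days after injury. In this model an inflated balloon strips the inner lining of the vessel, and a neointima of smooth muscle grows afterwards. The sample labels give an age of 12 weeks, whereas the study's methods give 8 weeks, at the beginning of the experiment. Arteries of both rats were pooled in each library, so there was 1 sample per group, no replicate check was possible, and the spread between rats could not be measured.

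Clotting starts when blood meets tissue factor, the product of F3, on cells outside the lining of the vessel. Tfpi encodes the inhibitor of that step and Tfpi2 a related inhibitor of trypsin-like proteases that also binds plasmin. On endothelium, thrombomodulin (Thbd) turns thrombin into an activator of the anticoagulant protein C, and the endothelial protein C receptor (Procr) binds protein C. Vwf encodes von Willebrand factor, which tethers platelets to an injured wall. Clots are dissolved by plasmin, which is cut from plasminogen by the tissue-type activator (Plat) or by urokinase (Plau), and urokinase is held on the cell surface by its receptor (Plaur).

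A cell was kept when it held at least 1000 UMIs (unique molecular identifiers, which count RNA molecules) and passed filters on mitochondrial share, UMIs and genes. This left 2229 of 3321 control barcodes, with a median of 10919 UMIs, and 4890 of 5656 case barcodes, with a median of 5174. The filters widened this gap in depth, since the medians of all barcodes were 5981 and 4778 UMIs. The UMI minimum removed 513 control and 40 case barcodes, whereas 4 control and 493 case barcodes lay outside the limits around the library mean. Kept cells reached 38579 UMIs in the control and 18002 in the case library. Since kept control cells held more UMIs, shares of cells with a UMI are given after thinning every cell to 2000 UMIs, with the share before thinning beside them. A kept cell took a class when the summed UMIs of 1 marker list, and of no other list, passed a gate. The control and case libraries held 1169 and 2649 smooth muscle-like cells (VSMC-like), 711 and 1418 fibroblast-like, 56 and 240 endothelial-like, 43 and 114 macrophage-like, and 19 and 50 Schwann-like cells. No class was given to 231 control and 416 case cells, of which 157 and 145 passed the gates of both VSMCs and fibroblasts. Thinning left out shallower cells, so that 1035 of 1169 control and 2547 of 2649 case VSMC-like, 695 of 711 and 1348 of 1418 fibroblast-like, and 55 of 56 and 226 of 240 endothelial-like cells remained. The median UMIs of all cells of these classes, before thinning, were 11879 and 5400.0, 11321 and 5154, and 7106 and 4140.5. Among the markers, Cdh5 was at 360.4 and 733 CPM (UMIs per 1000000 UMIs of the class) in endothelial-like cells of control and case and at no more than 2.75 CPM in any other class. Kdr, Flt1, Egfl7 and Emcn were also higher in the case cells, and Tie1 was level (339 and 341 CPM). Cldn5 (395 and 148 CPM), Ptprb (507 and 412 CPM) and Sox17 (237 and 219.9 CPM) were lower there. In other classes Tie1 reached 21.9 CPM (case macrophage-like), Ptprb 21.1 CPM (control Schwann-like) and Flt1 12.9 CPM (control VSMC-like). The gates cut continuous scores, and 199 control and 439 case cells lay within 1.5 times of the fibroblast gate, 144 and 195 of the VSMC gate, and 26 and 71 of the endothelial gate. Between the libraries, 21 barcodes were shared, carried by 15 kept control and 9 kept case cells, and the calls below were the same without them.

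When cells were clustered without the 9 genes, the muscle, fibroblast and endothelial classes had their largest share in different clusters in the 2 libraries. Macrophage-like cells lay in cluster 5 (97.7% of control and 96.5% of case cells) and Schwann-like cells in cluster 13 in both. The largest share of VSMC-like cells was in cluster 3 in the control group (52.3%) and in cluster 1 in the case group (41.1%). For fibroblast-like cells it was in cluster 7 in the control group (44.9%) and in cluster 6 in the case group (44.8%). Of endothelial-like cells, 83.9% of the control cells lay in cluster 11 and 52.1% of the case cells in cluster 8. Many cells of the 2 libraries still shared clusters. Cluster 1 held 256 control and 1089 case VSMC-like cells, and cluster 10 held 292 control and 368 case fibroblast-like cells. Cluster 11 held 47 control and 114 case endothelial-like cells. The 5 platelet markers together were at 10.6 CPM or less in every class but the macrophage-like (3537 and 1741 CPM), where all these UMIs were Pf4 and the other 4 markers were at 0. Intervals below are exact 95% intervals that cover counting error only.

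The 9 genes divided the vessel wall by cell class. Tissue factor and the tissue-type plasminogen activator were highest in fibroblast-like cells, von Willebrand factor was read almost only in endothelial-like cells, and Thbd and Procr were read in both. F3 and Plat were at least 2 times higher in fibroblast-like cells than in every other class in both libraries, as were 2.44% of the 11947 genes with at least 5 CPM in some class. Procr and Vwf were at least 2 times higher in endothelial-like cells than in every other class in both libraries, as were 3.23% of genes. Thbd passed this limit in the control library only, with 2.27 times its fibroblast-like level (2.06 to 2.49) against 1.87 times (1.73 to 2.03) in the case library. It passed in both libraries in thinned cells, without endothelial-like cells with a lymphatic marker, and with the TMM scaling described below.

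**Figure D1:**
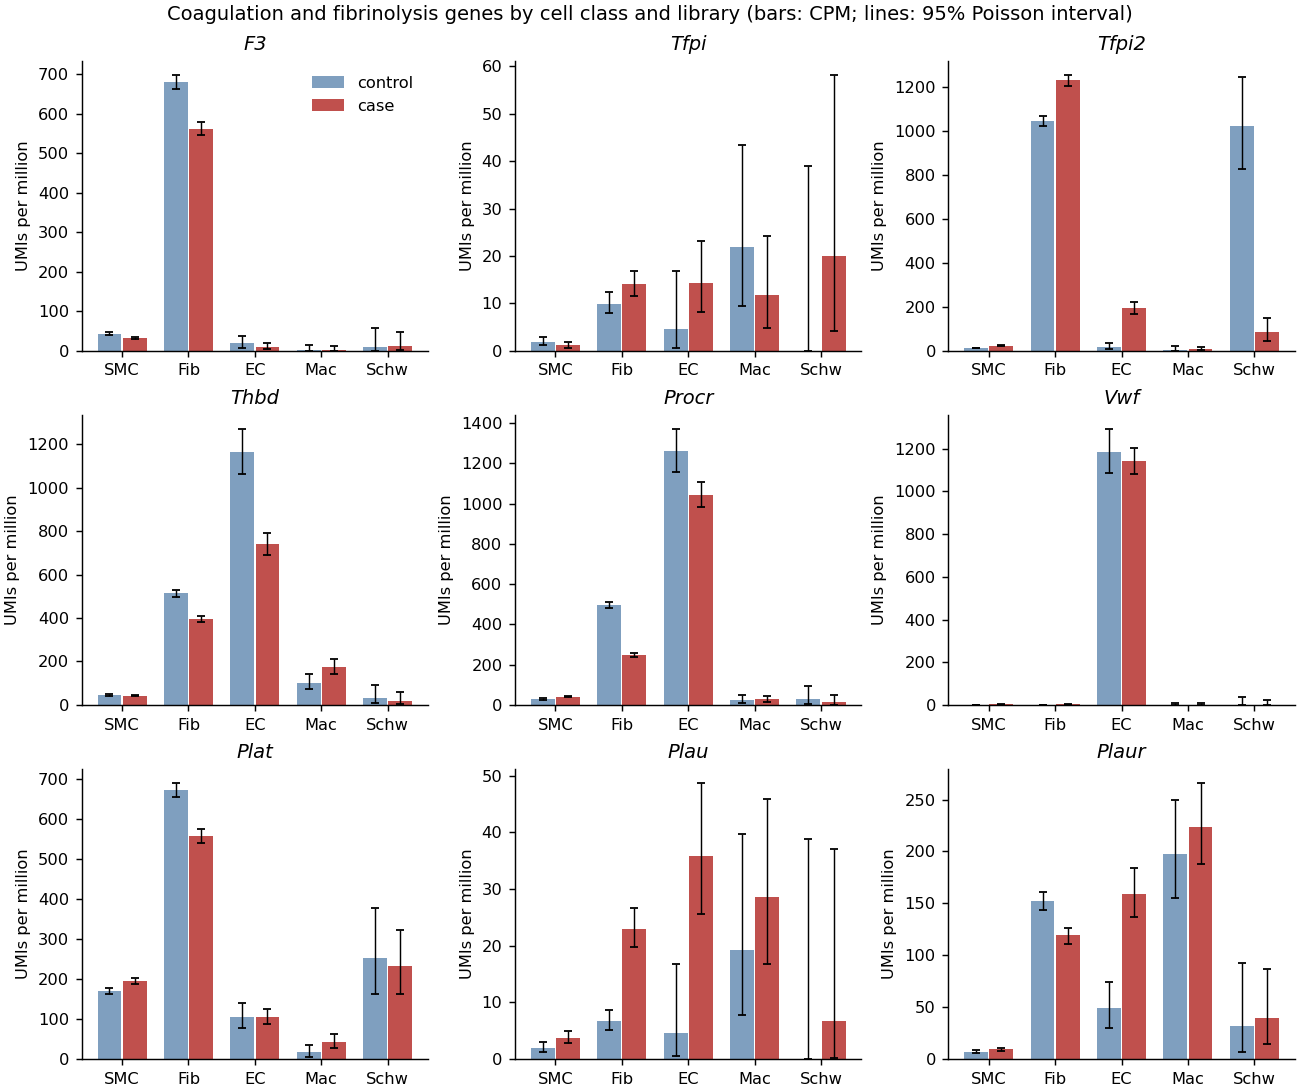
Level of each gene (UMIs per 1000000, linear axis from 0, with a separate scale for each gene) in smooth muscle-like (SMC), fibroblast-like (Fib), endothelial-like (EC), macrophage-like (Mac) and Schwann-like (Schw) cells. Bars are the single control (blue) and case (red) libraries and lines the 95% Poisson interval. F3 stands at 679.5 and 562 in fibroblast-like cells and under 50 elsewhere, and Vwf at 1186 and 1141 in endothelial-like cells.

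F3, the trigger of clotting, was at 679.5 CPM (662 to 698) in control and 562 CPM (545 to 579) in case fibroblast-like cells. In VSMC-like cells it was at 43.5 CPM (40.0 to 47.2) and 31.6 CPM (28.8 to 34.6). Fibroblast-like cells thus exceeded VSMC-like cells by 15.6 times in the control and 17.8 times in the case library. At 2000 UMIs per cell, F3 was found in 59.6% of control and 53.3% of case fibroblast-like cells, against 8.79% and 5.46% of VSMC-like cells. Before thinning the shares were 87.5% and 74.6% of fibroblast-like and 29.6% and 12.6% of VSMC-like cells. In macrophage-like cells, 1 and 2 UMIs of F3 were counted in all. The VSMC-like level of F3 was 6.40% and 5.62% of that in fibroblast-like cells, and the same ratio ranged over the 7 fibroblast markers from 0.319% (Pi16) to 10.6% (Lum) in the control and from 0.526% (Pi16) to 10.4% (Col1a1) in the case library. The part of free fibroblast RNA in the VSMC-like level of F3 was not tested.

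Tfpi, the inhibitor of tissue factor, was scarce in every class. Its level was 9.98 CPM (82 UMIs) in control and 14.0 CPM (109 UMIs) in case fibroblast-like cells. Endothelial-like cells held 2 UMIs in the control and 16 in the case library (14.3 CPM, 8.17 to 23.2). Macrophage-like cells held 8 and 7 UMIs, and VSMC-like cells were at 1.91 and 1.13 CPM. In the order of levels no class separated from its neighbour beyond counting error, except that VSMC-like cells lay below the macrophage-like cells in the case library. Fibroblast-like and VSMC-like cells were not neighbours in this order, and their intervals did not overlap. These were 7.93 to 12.4 against 1.24 to 2.82 CPM in the control and 11.5 to 16.9 against 0.657 to 1.81 CPM in the case library.

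Tfpi2 was mainly a fibroblast transcript, at 1045 CPM (1023 to 1068) in control and 1232 CPM (1208 to 1257) in case fibroblast-like cells. It was found in fewer cells than F3: at 2000 UMIs per cell, 33.1% of control and 43.6% of case fibroblast-like cells had a UMI of Tfpi2 (44.3% and 49.9% before thinning). VSMC-like cells were at 12.9 and 23.3 CPM, which is 1.23% and 1.89% of the fibroblast-like level and within the range given above for the fibroblast markers. Control Schwann-like cells stood at 1024 CPM, but 58 of their 97 UMIs came from 1 cell, and 50 case Schwann-like cells held 13 UMIs (86.3 CPM, 45.9 to 148). In the control library, fibroblast-like cells with F3 carried Tfpi2 less often than those without it. Tfpi2 was found in 25.8% (21.7 to 30.3) of cells with F3 and in 43.8% (37.9 to 49.8) of cells without it, at equal depth. In the case library these shares were 40.1% (36.5 to 43.8) and 47.6% (43.7 to 51.6).

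The anticoagulant receptors were also read outside the endothelium. Thbd was at 1165 CPM (1065 to 1271) in control and 741 CPM (691 to 793) in case endothelial-like cells, and at 514 CPM (498 to 529.6) and 395 CPM (381 to 409) in fibroblast-like cells. Macrophage-like cells were at 102 CPM (71.8 to 140.5) and 174 CPM (142 to 211), and VSMC-like cells at 44.5 and 42.9 CPM. Procr was at 1260.2 CPM (1156 to 1371) and 1044 CPM (985 to 1106) in endothelial-like cells. Fibroblast-like cells held 496 CPM of Procr (481 to 512) in the control and 248 CPM (237 to 259) in the case library, and VSMC-like cells 29.1 and 41.2 CPM. After thinning, 70.9% of control and 63.3% of case endothelial-like cells had a UMI of Procr, against 27.9% and 23.7% of fibroblast-like cells and 2.33% and 3.64% of macrophage-like cells. Before thinning these shares were 89.3% and 73.8%, 49.1% and 35.5%, and 14.0% and 5.26%.

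Vwf was at 1186 CPM (1085 to 1293) in control and 1141 CPM (1079.7 to 1206) in case endothelial-like cells, and its intervals overlapped. All other classes were at 2.45 CPM or less in both libraries, and Schwann-like cells held 0 UMIs, which allows up to 3. Among endothelial-like cells at equal depth, those with Procr carried Vwf more often than those without. The shares were 79.5% (63.5 to 90.7) against 50.0% (24.7 to 75.3) in the control and 70.6% (62.4 to 77.9) against 45.8% (34.8 to 57.1) in the case library, and the 2 intervals overlapped in the control library.

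The plasminogen activators differed in level. Plat was found in all 5 classes, at 672 CPM (655 to 690.4) and 558 CPM (541 to 575) in fibroblast-like, 170.4 CPM (163 to 178) and 195 CPM (188 to 202) in VSMC-like, and 105 CPM in endothelial-like cells of both libraries. Schwann-like cells were at 253 and 232 CPM, which did not separate from VSMC-like cells beyond counting error in either library. Plau was scarce, with 6.69 CPM (5.04 to 8.71) in control and 23.0 CPM (19.7 to 26.6) in case fibroblast-like cells, and 2 UMIs in control against 40 in case endothelial-like cells (35.8 CPM, 25.5 to 48.7). Control macrophage-like cells held 7 UMIs of Plau (19.3 CPM, 7.75 to 39.7), 5 of them in 1 cell. This was the highest level of the control library, at 2.88 times the fibroblast-like level (1.11 to 6.34). Case macrophage-like cells held 17 UMIs of Plau (28.6 CPM, 16.7 to 45.9). Plaur, the urokinase receptor, was highest in macrophage-like cells, at 198 CPM (155 to 249.7) and 224 CPM (188 to 266). In the control library fibroblast-like cells came next, at 152 CPM (144 to 161), and in the case library endothelial-like cells, at 159 CPM (137 to 184).

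Promoter sequence was at hand for 5 of the 9 genes (Tfpi, Tfpi2, Procr, Plau and Plaur). The 250 bases before the annotated start are printed for Procr and Plau, the genes past the 1.5-fold limit between the libraries in fibroblast-like cells, and for Plaur, the urokinase receptor, which was past it in endothelial-like cells (as were Tfpi2, whose sequence is not shown, and Thbd). They come from RefSeq on build GRCr8, whereas the counts rest on Rnor_6.0, and lie at chr3:164714477-164714726 (plus strand) for Procr, chr1:89181113-89181362 (plus strand) for Plaur and chr15:3511988-3512237 (minus strand) for Plau. Capitals mark the AP-1 letters TGACTCA or TGAGTCA and the GC box letters GGGCGG or its reverse complement CCGCCC, searched on both strands.
Procr: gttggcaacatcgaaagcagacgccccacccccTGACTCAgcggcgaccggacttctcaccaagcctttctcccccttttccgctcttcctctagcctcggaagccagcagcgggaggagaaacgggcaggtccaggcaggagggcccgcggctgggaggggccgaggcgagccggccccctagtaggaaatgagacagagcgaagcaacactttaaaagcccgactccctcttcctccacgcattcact
Plaur: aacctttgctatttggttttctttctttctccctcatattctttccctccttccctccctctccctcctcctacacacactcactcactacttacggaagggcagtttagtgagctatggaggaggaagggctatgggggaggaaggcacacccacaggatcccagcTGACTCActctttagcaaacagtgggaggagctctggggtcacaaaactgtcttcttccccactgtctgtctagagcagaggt
Plau: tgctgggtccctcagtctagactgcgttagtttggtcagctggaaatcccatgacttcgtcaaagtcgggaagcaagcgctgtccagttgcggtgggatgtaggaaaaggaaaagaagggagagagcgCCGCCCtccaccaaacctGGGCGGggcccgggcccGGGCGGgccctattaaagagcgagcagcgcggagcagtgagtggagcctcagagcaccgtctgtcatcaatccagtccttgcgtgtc
Procr and Plaur each held 1 match to the AP-1 letters, as did 4.05% of the 33469 promoters listed, and none to the GC box letters. Plau held 3 matches to the GC box letters, found in 30.5% of promoters, and none to the AP-1 letters. These matches describe the letters alone.

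The next comparison asked how the 9 genes differed between injured and normal arteries within a class. A gene is called when its CPM differed by at least 1.5-fold and it had at least 50 UMIs in the class over both libraries. In VSMC-like cells 7 of 9 genes passed the UMI minimum and 2 were called, both higher in the case library, where 22.6% of all 10220 genes tested were called and 6.46% were called as higher. In fibroblast-like cells 8 passed, 1 was called as higher and 1 as lower, with a background of 22.4% (7.22% higher and 15.2% lower). In endothelial-like cells 6 passed, 2 were called as higher and 1 as lower, with a background of 44.1% (731 of 3660 genes higher and 24.1% lower), and in macrophage-like cells 2 passed and 1 was called as higher, with a background of 29.0% (15.8% higher). With 2 to 8 genes tested in a class, these counts do not set the genes apart from the background. The median of all genes tested was -0.14, -0.09, -0.07 and 0.03 on the log2 scale in these 4 classes, in this order. In Schwann-like cells 2 passed and Tfpi2 was called as lower, with a background of 52.7% (24.2% lower). Scaling by TMM (trimmed mean of M values) moved every log2 change up by 0.29 in endothelial-like cells, by 0.12 in VSMC-like and Schwann-like cells, by 0.07 in fibroblast-like and by 0.01 in macrophage-like cells.

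**Figure D2:**
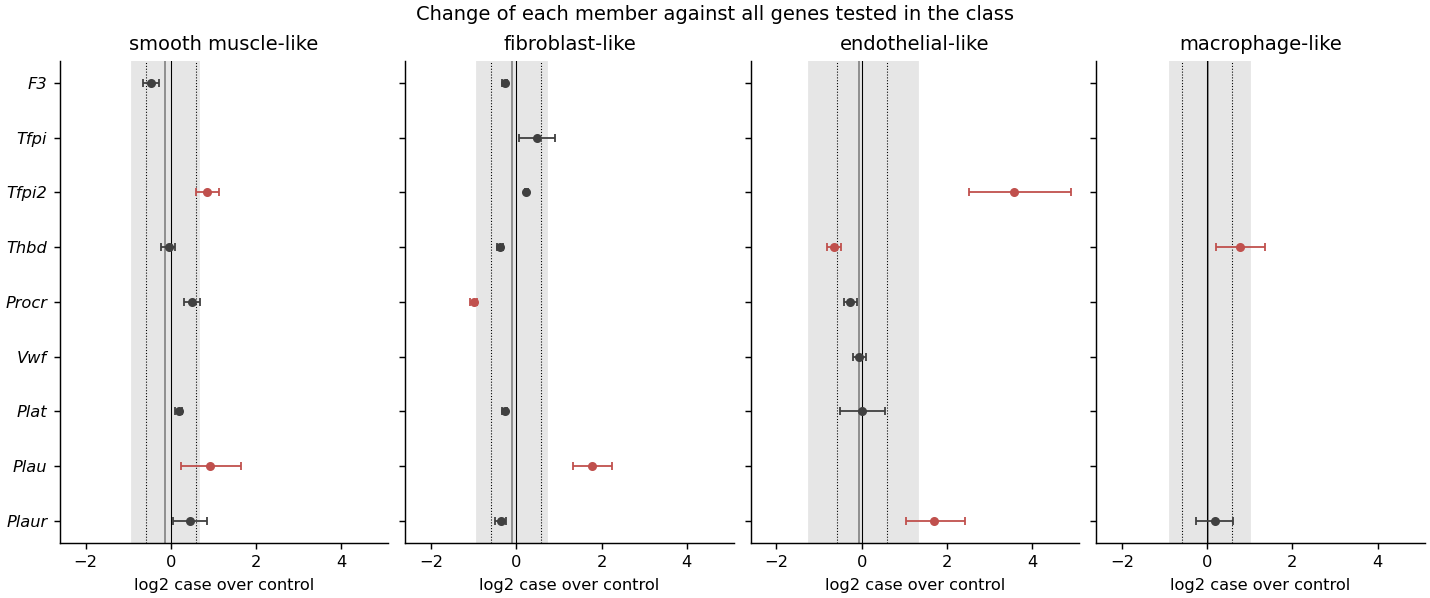
Log2 ratio of case over control CPM for each gene with at least 50 UMIs in the class, with its exact 95% counting interval. Grey bands hold the middle 90% of all genes tested in the class, grey lines their median, dotted lines the 1.5-fold limits, and red points are past the limit. Tfpi2 and Plaur in endothelial-like, Plau in fibroblast-like, and Tfpi2 and Plau in smooth muscle-like cells lie to the right of the band. Procr in fibroblast-like cells lies to the left of it.

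Procr and Plau were the called genes of fibroblast-like cells, and they differed in opposite directions. Procr was 2.00 times lower in the case library, a log2 change of -1.0 (-1.08 to -0.92), below the lowest 5% of all genes tested, which began at -0.92. Plau was 3.44 times higher, a log2 change of 1.78 (1.34 to 2.24), with 55 UMIs in the control and 179 in the case library. The other fibroblast-like changes were smaller, at -0.27 for F3 and Plat, -0.38 for Thbd, -0.36 for Plaur, 0.24 for Tfpi2 and 0.49 (0.06 to 0.92) for Tfpi. F3, Plat, Thbd and Plaur were thus lower in the case library beyond counting error, but in thinned cells Plat (-0.12, -0.25 to 0.00) and Plaur (-0.16, -0.43 to 0.11) were not.

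In VSMC-like cells, Tfpi2 differed by 0.86 on the log2 scale (0.59 to 1.13) and Plau by 0.93 (0.23 to 1.65), from 26 to 57 UMIs. Tfpi2 in VSMC-like cells was at 0.28 (-0.01 to 0.58) after the 5% of cells with the highest doublet score of each library were removed, which ends the call, and at 0.45 (-0.14 to 1.08) in thinned cells. Plau was at 0.70 (-0.02 to 1.45) without the highest doublet scores. Without the cell with most UMIs of Plau in each library it was at 0.73 (-0.01 to 1.51). Both values of Plau were past the limit, but their intervals reached 0. Procr was higher in case VSMC-like cells by 0.50 (0.32 to 0.69), past the limit at 0.61 with clusters as classes. F3 differed by -0.46 (-0.64 to -0.28), past the limit at -0.61 with clusters as classes and at -0.66 in thinned cells. Its change was smaller, at -0.28 (-0.45 to -0.11), with gates 1.5 times higher and at -0.34 (-0.52 to -0.16) with TMM scaling. Plat differed by 0.19 (0.11 to 0.27), Plaur by 0.44 (0.05 to 0.84) and Thbd by -0.05 (-0.22 to 0.11). Notch1-positive VSMC-like cells and those neither Notch1-positive nor Spp1-high had changes of 0.56 and 0.52 for Procr, -0.42 and -0.39 for F3, and 1.10 and 0.75 for Tfpi2. Plaur differed by 0.27 (-0.30 to 0.85) and 0.79 (0.22 to 1.40) in these subsets, and Vwf by 4.77 (2.15 to 10.13) on 1 and 23 UMIs and 0.52 (-0.88 to 2.07) on 7 and 14 UMIs.

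In endothelial-like cells, Tfpi2 went from 7 UMIs in 3 of 56 control cells (16.3 CPM) to 217 UMIs in 39 of 240 case cells (194 CPM). Its log2 change was 3.57 (2.51 to 4.91), and it was 2.55 (1.38 to 4.03) when cells with a lymphatic marker were left out. Plaur was at 48.8 CPM (30.2 to 74.6) and 159 CPM (137 to 184), a log2 change of 1.70 (1.05 to 2.43). The difference of Thbd was -0.65 (-0.81 to -0.49), and it lost its call with TMM scaling (-0.36), clusters as classes (-0.55), gates 1.5 times higher (-0.53) and without the single cell with most UMIs of Thbd (-0.57). Procr differed by -0.27 (-0.42 to -0.12), but by 0.02 with TMM scaling and -0.79 without cells with a lymphatic marker. The cells left out had a UMI of Prox1, Lyve1, Mmrn1 or Ccl21. All 18 such control cells lay in cluster 11 and 17 of them had Mmrn1, so the list does not show them to be lymphatic. In the whole class Vwf differed by -0.06 (-0.20 to 0.10), and 0.23 with TMM scaling, and Plat by 0.01 (-0.50 to 0.54). In macrophage-like cells Thbd was higher in the case library by 0.77 (0.21 to 1.35), on 37 and 103 UMIs, while Plaur differed by 0.18 (-0.25 to 0.61).

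Endothelial-like cells were then taken apart, since their makeup differed between the libraries. They lay in cluster 11 and in cluster 8, and the latter held 8 control and 125 case cells. Plvap and Emcn, genes of capillary and venous endothelium, were found (either gene) in 103 of these 125 case cells and in 5 of 114 case cells of cluster 11. Cluster 8 also held 23 of the case cells with Prox1, the regulator of lymphatic identity, and the summed level of 4 lymphatic markers in all endothelial-like cells was 172 CPM in the control (2 of 4 genes, with Lyve1 and Ccl21 at 0) and 731 CPM in the case library (4 of 4 genes). Mmrn1, another gene of that list, was found in 17 of the 18 control and 40 of the 41 case cells of cluster 11 with a lymphatic marker. Prox1 was found in 1 cell of cluster 11 in each library. The 4 pericyte markers went the other way, at 277 CPM in the control, with Kcnj8 at 0, and 75.1 CPM in the case library, and the part of either list in the differences below was not tested.

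**Figure D3:**
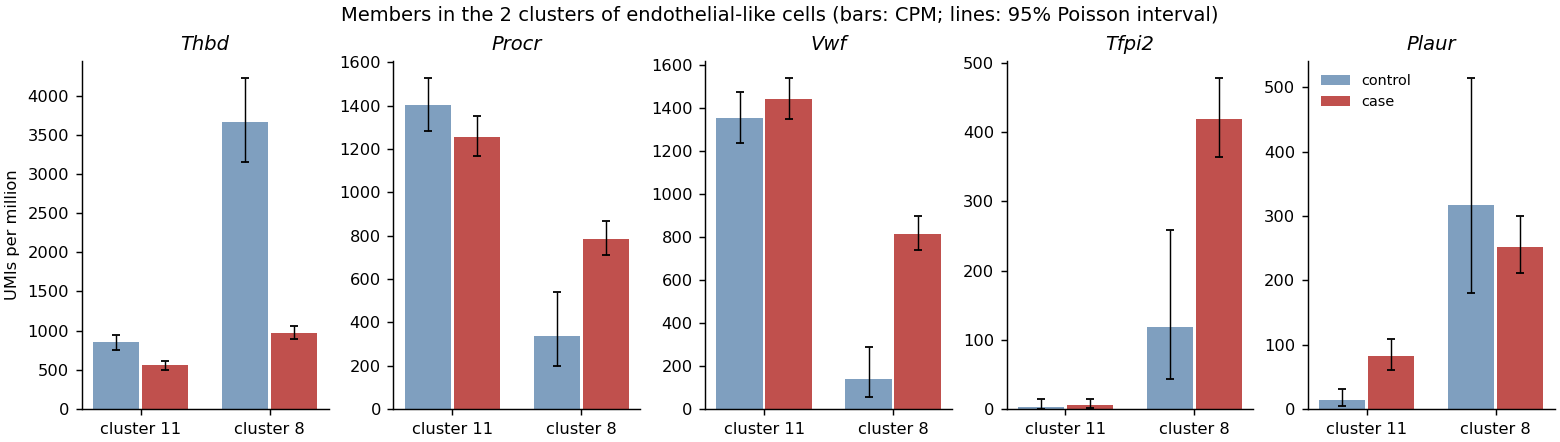
Level (UMIs per 1000000, linear axis from 0, with a separate scale for each gene) of 5 genes in endothelial-like cells of cluster 11 (47 control and 114 case cells) and cluster 8 (8 control and 125 case cells), with 95% Poisson intervals. Tfpi2 is near 0 in cluster 11 of both libraries and at 419 in case cells of cluster 8, whereas Vwf of cluster 11 differs little between the libraries.

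Tfpi2 of endothelial-like cells belonged nearly all to cluster 8. Case cells of cluster 8 held 214 of the 217 UMIs (419 CPM, 364 to 479), and the 8 control cells held 6 of the 7 (119 CPM, 43.6 to 259). In cluster 11 there were 1 UMI in the control and 3 in the case library. Case cells with Tfpi2 had a median of 1.94 fibroblast marker UMIs per 10000 and cells without it 2.63, but Dcn was at 84.5 and 53.1 CPM and F3 at 5 UMIs in 39 and 7 UMIs in 201 cells. Beside its 214 UMIs of Tfpi2, case cluster 8 held 1 UMI of F3. Cells with a UMI of a lymphatic marker held 116 of the 217 case UMIs. Cluster 8 was a larger share of the class in the case library. Within cluster 8 Tfpi2 also changed, by 1.82 (0.67 to 3.28), with a UMI in 2 of 8 control and 36 of 125 case cells. The part of the share of cluster 8 in the class difference was not tested.

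Within cluster 11, where 47 control and 114 case cells can be compared, Vwf and Procr were nearly level and Thbd was not. Vwf was at 1352 CPM (1236 to 1476) and 1442 CPM (1347 to 1541), a log2 change of 0.09 (-0.07 to 0.25), and Procr at 1403 CPM (1285 to 1529) and 1257 CPM (1168 to 1349.9), a change of -0.16 (-0.32 to 0.00). Thbd was lower in the case library, at 849 CPM (758 to 948) and 555 CPM (497 to 618). Its change of -0.61 (-0.84 to -0.39) was just past the 1.5-fold limit and was not recomputed under the alternatives. In cells without Plvap and Emcn, taken in place of cluster 11, Thbd changed by -0.29 (-0.52 to -0.05). Leaving out cells with a lymphatic marker as well put it at -0.11 (-0.41 to 0.19). Plaur of cluster 11 stood out with 5 UMIs in control (13.4 CPM, 4.36 to 31.4) and 49 UMIs in case cells (82.4 CPM, 61.0 to 109), a change of 2.62 (1.30 to 4.30). In cluster 8 Plaur did not differ beyond counting error, at 317 CPM (181 to 515) in control and 252 CPM (211 to 299.8) in case cells, a change of -0.33 (-1.08 to 0.52).

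Cluster 8 differed from cluster 11 in its receptors. In the case library Thbd was at 972 CPM (888 to 1061) in cluster 8 and 555 CPM in cluster 11, whereas Procr was at 786 CPM (711 to 867) and 1257 CPM and Vwf at 814 CPM (737 to 896) and 1442 CPM. In the 8 control cells of cluster 8, Procr was at 337 CPM (196 to 539) and Vwf at 139 CPM (55.7 to 286), below the case cells of that cluster. The 8 control cells of cluster 8 held 185 UMIs of Thbd (3664 CPM, 3155 to 4231), out of 501 UMIs of Thbd in all control endothelial-like cells. Splitting the class by Plvap or Emcn in place of clusters put Thbd at 2899 CPM in 12 control and 953 CPM in 108 case cells with either gene, and at 723 and 593 CPM in the cells with neither. With this split Plat changed by -2.34 (-3.16 to -1.53) in cells with either gene, on 27 and 28 UMIs. In cells with neither it changed by 1.38 (0.64 to 2.20), on 18 and 90 UMIs. By cluster, Plat did not differ beyond counting error, with changes of 0.33 (-1.11 to 2.26) in cluster 8 and -0.15 (-0.75 to 0.46) in cluster 11. With the split by Plvap or Emcn, Tfpi2 changed by 3.00 (1.62 to 4.90) in cells with either gene, on 4 and 169 UMIs. In cells with neither it changed by 3.06 (1.42 to 5.38), on 3 and 48 UMIs. Leaving out cells with a lymphatic marker as well put Tfpi2 at 2.35 (0.95 to 4.26) on 4 and 94 UMIs in cells with either gene. In cells with neither it was then at 0.64 (-1.76 to 3.94), on 2 and 7 UMIs.

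Fibroblast-like cells were split by genes that were not among the 9. A cell was Gfpt2-high from 20 UMIs of Gfpt2 per 10000, otherwise Postn-positive or Pi16-positive from 5 UMIs per 10000, and otherwise put in the remaining group. Gfpt2 makes a precursor of glycosylation, Postn marks matrix-producing fibroblasts and Pi16 adventitial fibroblasts. Pi16 was also in the fibroblast gate. The study lists Thbd with a gene printed as Gfp2, read here as Gfpt2, among the markers of one of its clusters. It terms the cells of that cluster transitional, because they carried markers of both VSMCs and fibroblasts. A high level of Thbd beside Gfpt2 is therefore a description. Whether the Gfpt2-high cells are the study's transitional cells was not tested. The Gfpt2-high share of fibroblast-like cells was 29.4% (26.1 to 32.9) in the control and 30.8% (28.4 to 33.3) in the case library, the Pi16-positive share 46.7% and 23.8%, and the Postn-positive share 0.844% (6 cells) and 6.91% (98 cells).

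**Figure D4:**
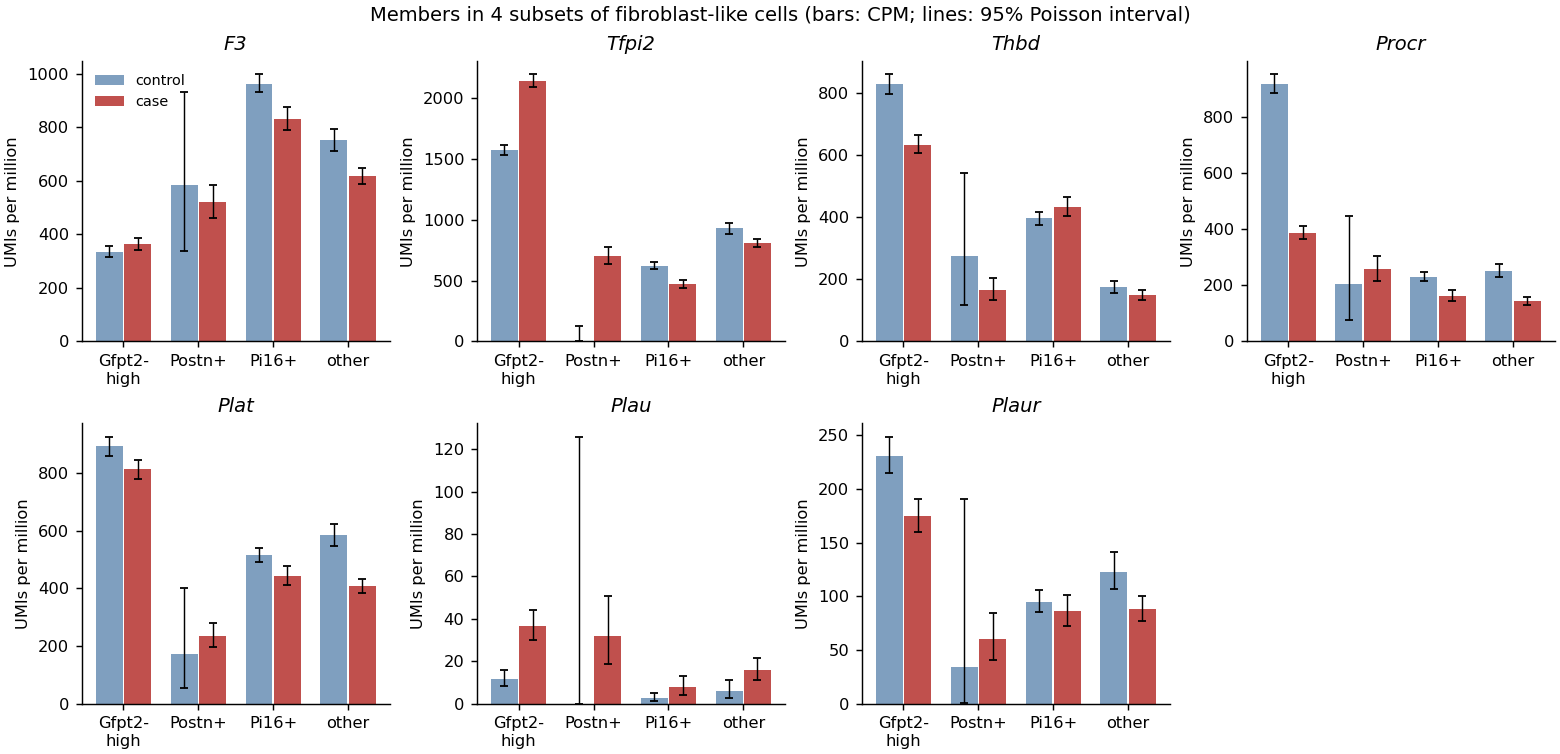
Level (UMIs per 1000000, linear axis from 0, with a separate scale for each gene) of 7 genes in Gfpt2-high, Postn-positive, Pi16-positive and remaining fibroblast-like cells of the control (blue) and case (red) library, with 95% Poisson intervals. F3 is lowest in Gfpt2-high cells, where Tfpi2, Thbd, Procr, Plat and Plaur are highest, and the Postn-positive control bars rest on 6 cells.

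Tissue factor and the other genes were highest in different fibroblast-like cells. F3 was at 964 CPM (931 to 998) in control and 832 CPM (789 to 876) in case Pi16-positive cells, and at 334 CPM (314 to 355) and 363 CPM (342 to 386) in Gfpt2-high cells. Its log2 level in Gfpt2-high cells was lower than in Pi16-positive cells by -1.53 (-1.63 to -1.43) in the control and -1.20 (-1.31 to -1.08) in the case library. Tfpi2 had the reverse order, at 1572 CPM (1528 to 1617) and 2140.2 CPM (2088 to 2194) in Gfpt2-high cells and 624 CPM (598 to 652) and 475 CPM (443 to 509) in Pi16-positive cells. The same order as for Tfpi2 was found in both libraries for Thbd, Procr, Plat, Plau and Plaur, beyond counting error, with log2 differences from 0.80 for Plat to 2.11 for Plau in the control and from 0.55 for Thbd to 2.26 for Plau in the case library. Tfpi differed by 0.53 (-0.34 to 1.42) and 1.23 (0.30 to 2.28), and Vwf had too few UMIs. Control Gfpt2-high cells had a median of 15105 UMIs and Pi16-positive cells 9633, against 6420.0 and 4822 in the case library, and CPM are relative to these totals.

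The lower level of Procr in the case library was found in each subset with over 100 cells in both libraries. It was at 918 CPM (885 to 952) and 387 CPM (365 to 410.1) in Gfpt2-high cells, a log2 change of -1.25 (-1.35 to -1.15). Pi16-positive cells were at 229.7 and 163 CPM, a change of -0.50 (-0.70 to -0.30), and the remaining cells at 252 and 143 CPM, a change of -0.82 (-1.02 to -0.61). Plau was higher in the case library in the same subsets, by 1.67 (1.11 to 2.26), 1.52 (0.18 to 2.93) and 1.41 (0.39 to 2.57), on 36 and 108, 9 and 13, and 10 and 41 UMIs. Tfpi2 was higher in case Gfpt2-high cells, by 0.45 (0.39 to 0.50), and lower in Pi16-positive cells, by -0.40 (-0.51 to -0.28), and in the remaining cells, by -0.20 (-0.30 to -0.11). F3 differed by 0.12 (-0.00 to 0.25) in Gfpt2-high cells but by -0.21 (-0.30 to -0.12) in Pi16-positive and -0.28 (-0.39 to -0.17) in the remaining cells.

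Postn-positive cells were few in the control library, and the 98 case cells give levels alone. Tfpi2 was at 702 CPM (633 to 777), F3 at 521 CPM (462 to 586), Procr at 258 CPM (217 to 305), Plat at 235 CPM (196 to 280.2) and Plau at 31.8 CPM (18.5 to 50.8) in these cells. Plat was lower there than in the other 3 subsets of the case library, and Plau was at 36.6 CPM in Gfpt2-high cells. The cells that passed the gates of both VSMCs and fibroblasts, 157 in the control and 145 in the case library, held 286 and 253 CPM of F3, 579.6 and 579 CPM of Tfpi2, 275 and 169.5 CPM of Thbd, and 256 and 349 CPM of Plat. For F3, Tfpi2, Thbd and Plat these values lie between those of the VSMC-like and fibroblast-like cells in both libraries. The cells were picked for carrying both marker lists. Their median depth was 2328 UMIs in the control, below that of both classes, and 7409 UMIs in the case library, above that of both. Whether they mix RNA of different cells was not tested.

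A wider list of 45 genes of clotting and fibrinolysis was read in the same cells. In VSMC-like cells 19 passed the UMI minimum, 0 were called as higher and 8 as lower in the case library, against 6.46% and 16.2% of all genes tested. In fibroblast-like cells 19 passed, 1 was higher and 4 lower, against 7.22% and 15.2%. In endothelial-like cells 14 passed, 0 were higher and 7 lower, against 731 of 3660 genes and 24.1%, and in macrophage-like cells 6 passed, 2 were higher and 1 lower, against 15.8% and 13.2%. The medians were -0.48, -0.23, -0.64 and 0.54 on the log2 scale in this order of classes, against the medians over all genes given above. The list and the 9 genes were read side by side and not tested against each other.

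Partners of the 9 genes were among that list. Serpine2, which inhibits thrombin and urokinase, was at 447 CPM in control and 269.8 CPM in case VSMC-like cells, and the values that follow are in the same order. S100a10, which binds plasminogen on the cell surface together with Anxa2, was at 2062 and 1079.8 CPM in fibroblast-like and 1917 and 1006 CPM in macrophage-like cells, while Anxa2 was at 211 and 174 CPM and at 218 and 217 CPM. Thbs1, an adhesive protein of the matrix, was the gene called as higher in fibroblast-like cells, at 12.7 and 38.5 CPM. F5, the cofactor of thrombin formation, was at 330.2 and 232 CPM in endothelial-like cells, and F13a1, which crosslinks fibrin, at 410.4 and 627 CPM in macrophage-like cells. F2r, a receptor that thrombin cuts, was at 63.1 and 51.4 CPM in VSMC-like and 118 and 127 CPM in fibroblast-like cells. Lman1, which carries clotting factors out of the endoplasmic reticulum, and Vkorc1, which recycles vitamin K, were called as lower in cells of the muscle, fibroblast and endothelial classes, with log2 changes of -1.04, -0.65 and -1.69 for Lman1 and -0.94, -0.86 and -1.21 for Vkorc1. Gas6, Serping1, Anxa5, Lrp1 and Mcfd2 also reached 100 CPM in some class, and in fibroblast-like cells their log2 changes were -0.23, -0.16, -0.25, -0.20 and -0.39. Past the limit were Gas6 in VSMC-like (-0.80) and endothelial-like cells (-0.98), and Serping1 (-0.98) and Mcfd2 (-0.76) in endothelial-like cells. Anxa5 was past it in macrophage-like (0.77) and Schwann-like cells (0.81).

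The genes with the most similar profile were sought among 4913 genes over 10 points (5 classes in 2 libraries), by Pearson correlation of log2(CPM + 10). The points of a library share its depth and cells, and the values describe these profiles alone. The closest genes were C1s (0.984), Ctsk (0.977) and Pdgfrl (0.975) for F3, and Cp (0.970), Lrp6 (0.951) and Akap12 (0.950) for Plat. For Tfpi2 they were Amd1 (0.945), Add3 (0.940) and Chac1 (0.932). Procr was closest to Cd34 (0.989), AABR07007032.1 (0.982) and Eng (0.981), and Thbd to Nck1 (0.976), Eng (0.944) and Zfp521 (0.939). Vwf was closest to Selp, Rasip1 and Mmrn2 (0.999 each), and Plaur to Nfe2l2 (0.956), Ctsl (0.946) and C1galt1 (0.944). Tfpi and Plau were under 50 CPM in every class and were left out.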

How the data were processed

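Dissociated carotid arteries of 2 rats were run on the 10x Genomics platform as 1 library per group. The authors deposited a UMI count for 32623 genes in each barcode, made with Cell Ranger 3.1.0 per the file headers; the submitters' processing notes name Rnor_6.0 and Seurat. Both libraries stand in 1 table, and each barcode suffix was assigned from the barcode numbers stated in the methods. Whether libraries were equalised in depth before deposit is not given in the sources used here. The deposited counts sum to 24968329 control and 28232614 case UMIs.

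Barcodes were kept with at most 20% mitochondrial UMIs, log10 UMIs and genes within 2 SD of the library mean, genes within 3 robust SD of their regression on UMIs, and at least 1000 UMIs. Classes came from marker UMIs per 10000, with gates of 40 (VSMC), 100 (fibroblast), 5 (endothelial), 10 (macrophage), 10 (Schwann) and 3 (T cell), at least 3 marker UMIs and a single gate passed. The gates were set after the marker distributions had been seen and use none of the 9 genes. The members and lists were chosen with earlier results of these data known.

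UMIs were summed per class and library and given as CPM with exact Poisson intervals, shares with Clopper-Pearson and ratios with exact conditional intervals. With 1 library per group no test was run. Named were the 9 genes, genes of the wider list with at least 100 CPM in some class (1 of them is not reported here), the 3 most similar genes of each of the 9, and markers. Clusters (Leiden, resolution 0.8) used 2000 variable genes without the 9, 30 components and 20 neighbours. Scrublet marked 19 control and 1 case cell, which is no working doublet check for the case library, and no doublets were removed. On simulated fibroblast-like counts of 8990 genes, 94.0% of 200 genes changed by a log2 value of 1 were called, and on endothelial-like counts of 3660 genes 78.5%. Of the unchanged genes 1.79% and 5.84% were called. The simulated counts held counting error alone, without the spread between cells or rats. Besides 10 alternatives, 4 were added after seeing the data. Software was scanpy 1.11.5, scipy 1.17.1, leidenalg 0.10.2, numpy 2.4.6, matplotlib 3.10.9 and pandas 2.3.3 in Python 3.11.15, and edgeR 4.0.16 in R 4.3.3 for TMM factors.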

Additional observations from a re-analysis of the deposited data

Results flagged for a closer look

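Some of the 9 genes differed between the libraries in opposite directions in 2 classes, with both counting intervals on opposite sides of 0. The differences were not tested, since each group is 1 library. The log2 change of Procr in VSMC-like cells exceeded that in fibroblast-like cells by 1.5 and that in endothelial-like cells by 0.77. The change of Plat in VSMC-like cells exceeded that in fibroblast-like cells by 0.46, and that of Plaur by 0.80. The change of Plaur in fibroblast-like cells less that in endothelial-like cells was -2.07. For Thbd, the change in fibroblast-like cells less that in macrophage-like cells was -1.15, and that in endothelial-like cells less that in macrophage-like cells was -1.42. With TMM scaling the endothelial-like change of Procr was 0.02, and in thinned cells the intervals of the fibroblast-like changes of Plat (-0.12, -0.25 to 0.00) and Plaur (-0.16, -0.43 to 0.11) reached 0. The interval of the VSMC-like change of Plaur also reached 0 in thinned cells (0.67, -0.27 to 1.72) and without the highest doublet scores (0.34, -0.08 to 0.77).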

How the results depend on the processing

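No paired analysis was possible because each group is 1 library with arteries of both rats pooled. Of 256 changes of single genes recomputed under the alternatives other than the UMI minimums, which cannot alter a change, 232 stayed within the counting interval of the value reported and 0 called changes turned sign. The fibroblast-like calls of Procr and Plau and the endothelial-like calls of Tfpi2 and Plaur held under every alternative that gave a value (Plaur was below the minimum of 200 UMIs). Thbd in endothelial-like cells ranged from -0.90 to -0.36 on the log2 scale and lost its call with clusters as classes (-0.55), higher gates (-0.53), TMM scaling (-0.36) and without its highest cell (-0.57). Procr in endothelial-like cells was at -0.79, past the limit, without cells with a lymphatic marker, and at 0.02 with TMM scaling. The count of genes called in VSMC-like cells was 4 with clusters as classes, 4 with gates 1.5 times higher and 4 with a minimum of 20 UMIs, and 1 with a minimum of 200 UMIs and 1 without the highest doublet scores. After thinning it stayed at 2, but the genes were F3 and Plaur. In endothelial-like cells the count was 5 with a minimum of 20 UMIs. In macrophage-like cells it was 2 with a minimum of 20 UMIs, 0 with 200 UMIs and 0 after thinning. These filters change which genes are tested; for the others the cause was not tested. After thinning, Tfpi2 had 0 UMIs in control endothelial-like cells, and no change is given. TMM shifted log2 changes by 0.12, 0.07, 0.29 and 0.01 in VSMC-like, fibroblast-like, endothelial-like and macrophage-like cells. Depth limits the Schwann-like, macrophage-like and endothelial-like values, with 19, 43 and 56 control cells, and Tfpi and Plau everywhere.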
